A study of Mus musculus with 2 samples.

Results

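The genes described here are the endothelin ligands *Edn1* and *Edn3* and the endothelin-converting enzymes *Ece1* and *Ece2*. They were taken by symbol from the gene list of the deposited matrices and make up 4 of its 32285 genes. The data were single cell RNA sequencing of dorsal root ganglia (DRG, lumbar levels L4 and L5) from naive, uninjured female C57BL/6 mice at 3 months of age. The only group had 2 replicates, with no treatment or mutant allele to compare, so the comparisons were made between cell subtypes within it. The ganglia were dissociated with papain and collagenase and live cells were sorted before capture in droplets. The study describes the samples as biological replicates, and the number of mice behind each was not given in the sources used here, so the p-values measure the spread between these 2 samples. Values are unique molecular identifiers (UMIs), each standing for 1 captured transcript, and levels are given as UMIs per 1000000 UMIs of the same cells (CPM). The replicates held 119101743 and 128668771 UMIs in all, and 8477 and 8444 cells were retained.

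Endothelins are short vasoactive peptides cut from longer precursors. Furin-like convertases release an inactive intermediate, which the membrane metalloproteases encoded by *Ece1* and *Ece2* then cut after a tryptophan to give the active peptide. The peptides act on the receptors of *Ednra* and *Ednrb*. The peptide of *Edn1* is best known as a constrictor of blood vessels made by their endothelium, that of *Edn3* for its part in neural crest development through *Ednrb*, and the enzyme of *Ece2* for its presence in neural tissue.

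The stretch that encodes the mature peptide of each ligand is shown because the receptors and both enzymes act on it. It lies in exon 2 of 5 of both genes, at chr13:42303649-42303714 for *Edn1* and chr2:174761749-174761814 for *Edn3*, on the plus strand of GRCm38. Capitals mark the codon of the tryptophan before the cut of the converting enzymes, and the last 3 bases encode the residue after it.
Edn1: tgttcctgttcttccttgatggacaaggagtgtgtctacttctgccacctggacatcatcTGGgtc
Edn3: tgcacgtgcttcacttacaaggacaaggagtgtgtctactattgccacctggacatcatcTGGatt
Up to that cut, 50 of 63 bases were identical in the ligands (79.4%). *Edn1* (ENSMUSG00000021367) spans chr13:42301476-42307990, *Edn3* (ENSMUSG00000027524) chr2:174760619-174784042, *Ece1* (ENSMUSG00000057530) chr4:137862237-137965229 and *Ece2* (ENSMUSG00000022842) chr16:20629828-20646485, each on the plus strand. Antisense genes overlap *Edn1* (Gm47118) and *Ece1* (Gm13012). On the same strand as *Ece2* the annotation has an overlapping protein-coding gene, Gm49333, which was not among the genes counted, so its transcripts could not be told apart from those of *Ece2*.

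Endothelial cells, fibroblasts with perineurial cells, mural cells and neurons of at least 10000 UMIs were clustered again within each class, and the members took no part in the choice of genes for clustering. This gave 20 subtypes with 2169 cells, of which 4 were endothelial (317 cells), 8 fibroblast or perineurial (1144), 5 mural (595) and 3 neuronal (113). A subtype was named from known markers when at least 3 markers of 1 list were among its 50 leading genes and no other list reached 3, and otherwise by its leading gene. The arterial endothelial-like subtype was led by *Nebl*, *Slco1c1* and *Foxq1* and had *Bmx*, *Gja4*, *Alpl* and *Vegfc* among its leading genes. Its summed arterial markers (2013 and 2101 CPM in replicates 1 and 2) were above those of the subtype led by *Pdgfc* (851 and 811), but its summed capillary markers (7815 and 8036) were as high as there (8120.5 and 7241). The subtype led by *Ccl21a* carried 5 venous and 4 lymphatic markers among its leading genes and was not named, and 5 of its 46 cells had UMIs of at least 3 lymphatic markers. Barcodes called as cells in both replicates made up 267 retained cells, 0 of them endothelial, 3 of them fibroblasts and 59 of them among the 113 neurons.

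**Figure D1:**
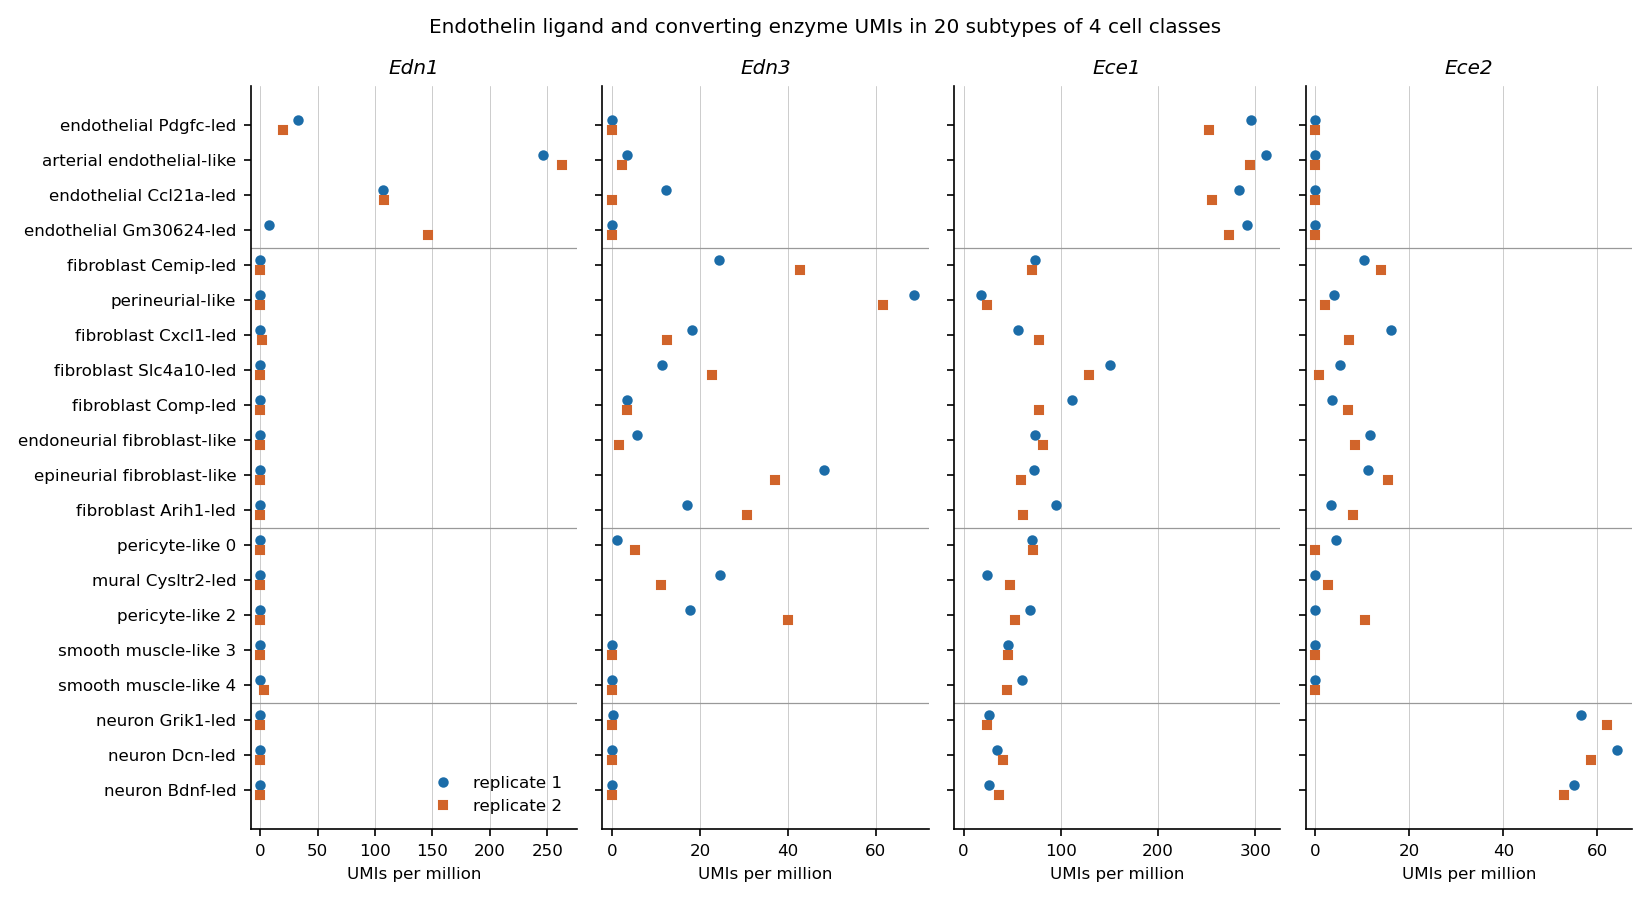
Level of each gene (CPM, x axes, each with its own scale) in 20 subtypes (rows) of the endothelial, fibroblast, mural and neuronal classes, separated by lines. Circles are replicate 1 and squares replicate 2. *Edn1* lies at 246 and 263 in the arterial endothelial-like subtype, *Edn3* at 68.6 and 61.6 in the perineurial-like subtype, and *Ece2* is at 0 in the 4 endothelial subtypes.

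*Edn1* was carried by endothelial cells, and within them mainly by the arterial endothelial-like subtype. That subtype held 212 and 345 of the *Edn1* UMIs in 43 and 67 cells, which was 74.2% of the UMIs in endothelial subtypes and 58.0% of the 960 in called cells. Its level was 246 and 263 CPM in replicates 1 and 2, against 107 and 108 in the subtype led by *Ccl21a* and 32.9 and 19.3 in the subtype led by *Pdgfc*. The 3 subtypes did not overlap, also without the single cell with most *Edn1* in each profile (231 and 238, 87.0 and 51.6, and 27.6 and 8.42 CPM). The arterial endothelial-like level was 9.90-fold that of the subtype led by *Pdgfc* (log2 difference 3.31, SE 0.27, adjusted p = 2.85e-07) and 2.50-fold that of the subtype led by *Ccl21a* (1.32, SE 0.27, adjusted p = 0.00155). The subtype led by *Ccl21a* was 3.95-fold above that led by *Pdgfc* (1.98, SE 0.33, adjusted p = 0.000266). *Edn1* was thus called in 3 of 3 pairs of endothelial subtypes, where 9.25% of all gene and pair combinations were called, and 3.84% of genes in the pair with the largest *Edn1* difference.

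Each endothelial cell was also labelled by the marker list with the largest share of its UMIs relative to the mean share over cells. With these labels, 60.9% of the arterial endothelial-like cells kept theirs. *Edn1* then stood at 143 and 224 CPM in the arterial cells and 85.1 and 124 in the capillary cells that took the place of the subtype led by *Pdgfc*, and the log2 difference was 0.79 (adjusted p = 0.186). The cells that took the place of the subtype led by *Ccl21a* had 84.5 and 77.4 CPM, and their difference from the capillary cells turned to -0.44 (adjusted p = 0.506). With DESeq2, the difference between the arterial endothelial-like subtype and that led by *Ccl21a* kept its direction and missed the threshold (1.24, adjusted p = 0.155).

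The fourth endothelial subtype, led by *Gm30624*, had too few cells in replicate 1 (19) for the fit. Its *Edn1* level was 7.69 CPM in replicate 1 and 146 in replicate 2, so the replicates lay on either side of the subtype led by *Pdgfc*. A single cell with 31 UMIs held much of the second value, which was 84.0 CPM without it.

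Single cells within a subtype differed widely. In the arterial endothelial-like subtype 33 of 43 and 52 of 67 cells had an *Edn1* UMI, and 18 and 21 cells had 5 or more, up to 22 and 40 UMIs in a cell. In the subtype led by *Pdgfc*, 12 of 69 and 7 of 53 cells had any, and 1 cell in each replicate had 5 or more. The subtype led by *Ccl21a* lay between, with 9 of 25 and 9 of 21 cells. Across the endothelial subtypes, the 13 cells with most *Edn1* (of 129 with any) held 42.1% of the UMIs. With each cell thinned to 1000 UMIs, 20.9% of 110 arterial endothelial-like cells had *Edn1* (exact 95% interval 13.7 to 29.7), against 4.92% of 122 cells led by *Pdgfc* (1.83 to 10.4) and 0 of 326 fibroblasts led by *Cemip*, which allows up to 0.920%. With each cell thinned to 5000 UMIs, 57.9% of 107 arterial endothelial-like cells had it (48 to 67.4), against 32.6% of 46 cells led by *Ccl21a* (19.5 to 48) and 10.8% of 120 led by *Pdgfc* (5.90 to 17.8). At 5000 UMIs it was found in 0 of 285 fibroblasts led by *Cemip*, which allows a share of up to 1.05%. Their median depth before thinning was 10834 UMIs, against 17369 in the arterial endothelial-like subtype. In the order arterial endothelial-like, *Ccl21a*, *Pdgfc* and *Cemip*, thinning to 5000 left out 3, 0, 2 and 47 cells, and the unthinned shares were 77.3%, 39.1%, 15.6% and 0%. These intervals cover counting error alone.

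**Figure D2:**
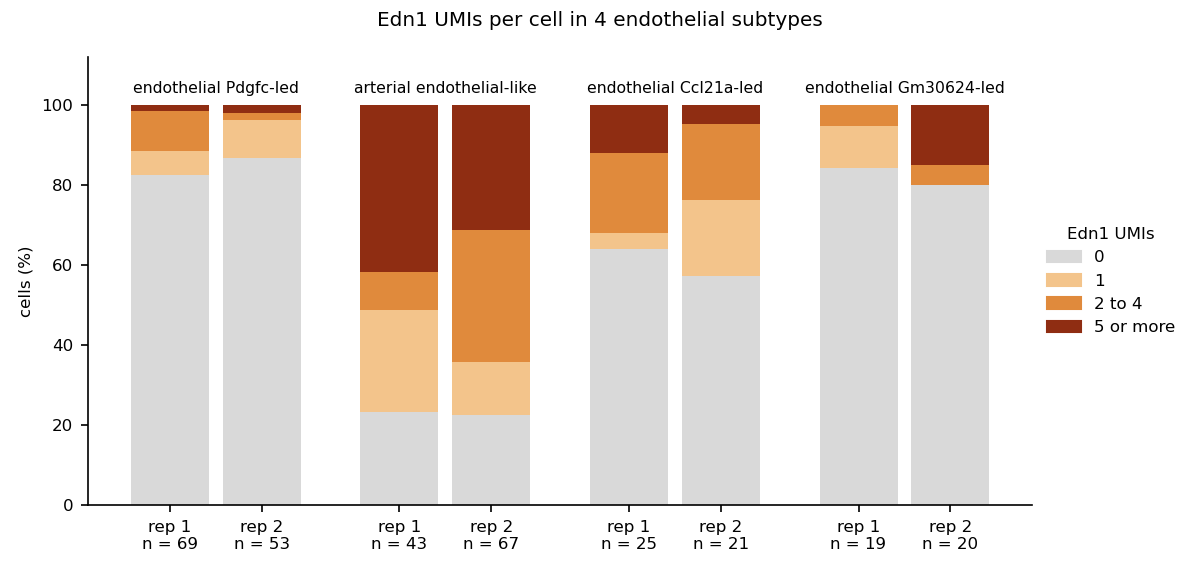
Share of cells (y axis, %) with 0, 1, 2 to 4, or 5 or more *Edn1* UMIs in each of 4 endothelial subtypes and 2 replicates, with the number of cells under each bar. In the arterial endothelial-like subtype 10 of 43 and 15 of 67 cells had none, against 57 of 69 and 46 of 53 in the subtype led by *Pdgfc*.

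The cells that carried *Edn1* elsewhere were few. Among 16504 retained cells of other classes, 36 held 41 *Edn1* UMIs, and 5 of those 36 also had a UMI of *Flt1* or *Pecam1* (13.9%, exact 95% interval 4.67 to 29.5), endothelial genes found in 3.92% of the cells without *Edn1*. Of the fibroblast, mural and neuronal subtypes, the fibroblasts led by *Cxcl1* and the smooth muscle-like subtype 4 held 1 UMI each and the others 0. Empty droplets held *Edn1* at 4.32 and 4.70 CPM. In the subtype led by *Ccl21a*, the 5 cells with at least 3 lymphatic markers held 8 and 0 *Edn1* UMIs, and its other cells 27 and 35 (96.7 and 118 CPM).

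Genes of the surrounding pathway differed between the endothelial subtypes too. Of 14 fixed genes of endothelin processing, breakdown and reception, 8 had enough counts for the test. *Furin* and *Pcsk5*, convertases that act before the converting enzymes, were higher in the arterial endothelial-like subtype than in that led by *Pdgfc*, and 0 of the 8 were lower, where 2.33% of all genes were called higher and 1.51% lower. *Pcsk5* stood at 72.0 and 65.5 CPM against 14.5 and 21.4 (log2 difference 1.96, SE 0.33, adjusted p = 0.000200), and *Furin* at 68.5 and 58.7 against 32.9 and 27.5 (1.09, SE 0.29, adjusted p = 0.0240). In the subtype led by *Ccl21a*, 4 of the 8 were higher than in that led by *Pdgfc*, and 0 lower, where 5.95% of all genes were called higher and 4.8% lower (10.7% in either direction). They were *Pcsk5*, *Pcsk6*, the receptor *Ednrb* and *Mme*, a peptidase that degrades endothelins. *Ednrb* stood there at 103.5 and 114 CPM against 23.2 and 34.6 (1.87, SE 0.39, adjusted p = 0.000886). Against the arterial endothelial-like subtype, *Ednrb*, *Pcsk6* and *Mme* were higher in the subtype led by *Ccl21a*, where 13.2% of all genes were called, 6.99% higher in the subtype led by *Ccl21a* and 6.16% higher in the arterial endothelial-like subtype.

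Of 14 known transcriptional regulators of *Edn1* in endothelium, 4 were higher in the arterial endothelial-like subtype than in that led by *Pdgfc* and 0 lower, where 2.33% of all genes were called higher and 1.51% lower. *Klf2*, a flow-responsive factor, stood at 2019 and 2210 CPM against 846 and 806 (log2 difference 1.39, SE 0.30, adjusted p = 0.00369), and *Klf4*, its relative, at 700.4 and 727 against 312 and 323 (1.2, SE 0.20, adjusted p = 0.000199). The others were *Fos* and *Jun*, which are also in the list of immediate early genes below. The list of regulators does not separate factors that raise *Edn1* from factors that lower it. *Gata2*, a GATA factor of endothelium, was at 62.7 and 58.7 CPM against 36.8 and 21.4 and did not pass (adjusted p = 0.236). In the subtype led by *Ccl21a*, *Hif1a* and *Nfkb1* were higher and *Epas1* lower than in that led by *Pdgfc*, where 5.95% of all genes were called higher and 4.8% lower. Against the subtype led by *Ccl21a*, the arterial endothelial-like subtype was higher in *Klf2*, *Klf4*, *Epas1* and *Fos* and lower in *Hif1a*, *Nfkb1* and *Foxo1*, where 6.16% of all genes were called higher and 6.99% lower.

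Of 13 vasoactive genes, 4 were lower in the arterial endothelial-like subtype than in that led by *Pdgfc* and 0 higher, where 1.51% of all genes were called lower. These were the prostaglandin enzymes *Ptgis* and *Ptgs1* and the peptide receptors *Aplnr* and *Calcrl*. *Aplnr*, the receptor of apelin, stood at 115 and 151 CPM in the subtype led by *Pdgfc* against 2.32 and 12.2 (log2 difference 3.99, SE 0.51, adjusted p = 6.94e-05). Relative to the subtype led by *Ccl21a*, 7 of the 13 were lower in the arterial endothelial-like subtype and 0 higher, where 6.99% of all genes were called lower. Relative to that led by *Pdgfc*, 4 of the 13 were higher in the subtype led by *Ccl21a* (*Ptgs1*, *Ptgs2*, *Adm* and *Apln*) and 0 lower, where 5.95% of all genes were called higher.

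Immediate early genes, which respond within minutes to stimulation and also to dissociation of tissue, moved with the same subtype. Of 17 in the fixed list, 14 were higher in the arterial endothelial-like subtype than in that led by *Pdgfc* (2.33% of all genes were called in that direction) and 0 lower. *Atf3* stood at 798 and 836 CPM against 110 and 239 (log2 difference 2.26, SE 0.44, adjusted p = 0.00130). The summed level of the list was 24204 and 24721 CPM in the arterial endothelial-like subtype, 7590 and 10867 in that led by *Pdgfc*, 8959 and 14833 in that led by *Ccl21a*, and 31143 and 30603 in that led by *Gm30624*. The last of these had the highest sums in both replicates, with *Edn1* at the 7.69 and 146 CPM given above. The list shares *Fos* and *Jun* with the regulators. What part dissociation had in the *Edn1* levels was not tested.

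Endothelial cells with UMIs of both *Flt1* and *Pecam1* numbered 152 and 156, of which 56 and 72 had *Edn1*. Over these cells of all endothelial subtypes together, the genes that went with *Edn1* included 11 of the 12 arterial markers detected. Correlations are Pearson's r of depth-corrected residuals over cells of a replicate, which share a library, and are given as a description over 9878 genes detected in at least 10% of these cells. The 12 genes with the highest r in both replicates were led by *Slc2a1*, the glucose transporter of barrier endothelium (0.464 and 0.354), and *Foxq1*, a forkhead factor (0.437 and 0.313). They were followed by *Sema3c*, *Ntn4*, *Glul*, *Tm4sf1*, *Cd59a*, *Bmx*, *Cldn5*, *Plscr1*, *Atp13a3* and *App*, with values between 0.261 and 0.404. The 6 lowest were *Plpp3*, *Tshz2*, *Cd300lg*, *Enpep*, *Gpihbp1* and *Jam3*, and *Gpihbp1*, which anchors lipoprotein lipase in capillaries, had -0.27 and -0.30. The capillary list as a whole was split, with 3 of 9 markers above 0 in both replicates and 4 below. Of all 9878 genes, 46.3% had r above 0 in replicate 1 and 47.5% in replicate 2. These shares are of each replicate alone, and the share with the same sign in both was not counted. Of 12 arterial markers detected, 11 had r above 0 in both replicates, among them *Alpl* (0.190 and 0.339), and the twelfth did not have the same sign in both. Of the 14 regulators, 7 had r above 0 in both replicates and 5 below, with medians over the list of 0.0044 and 0.022. Those above included *Epas1* (0.185 and 0.261), *Klf2* (0.182 and 0.208) and *Gata2* (0.0665 and 0.211). Those below included *Foxo1* (-0.058 and -0.25) and *Hif1a* (-0.0070 and -0.13).

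The 50 genes with the highest r in replicate 1 had a median r of 0.133 in replicate 2, with 43 above 0, and the 50 from replicate 2 had 0.0940 in replicate 1, with 39 above 0. The median over all genes was -0.0060 and -0.0077. Within the arterial endothelial-like cells alone the same procedure gave 0.000233 and -0.056, and with the mean of each subtype removed -0.00097 and -0.022. Thinned to 5000 UMIs a cell, it gave 0.0260 and 0.00327 over all these cells. The median r in the other replicate was thus above that of all genes over the subtypes at full depth, and near 0 within the arterial endothelial-like cells and after thinning. The comparisons within the subtype were chosen after seeing the data. Of the 12 highest genes, which were ranked on cells that include these, all but *Glul* and *Cldn5* had r above 0 within the arterial endothelial-like cells in both replicates, such as *Ntn4* (0.225 and 0.369), a netrin of basement membranes, and *Foxq1* (0.307 and 0.190). Of the 12 arterial markers, 4 of which named the subtype, 5 were above 0 in both replicates within the arterial endothelial-like cells and 1 below. With the mean of each subtype removed, 4 were above 0 in both and 2 below. For the 14 regulators these counts were 2 above and 7 below within the arterial endothelial-like cells. With subtype means removed they were 3 above and 7 below. Of the 17 immediate early genes, 9 had r above 0 in both replicates over all *Flt1*- and *Pecam1*-positive cells and 2 below. Within the arterial endothelial-like cells 0 were above 0 and 11 below in both, and *Fos* went from 0.0827 and 0.0404 to -0.10 and -0.19. Of all genes, 46.9% and 49.6% were above 0 within these cells in replicates 1 and 2, each taken alone.

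**Figure D3:**
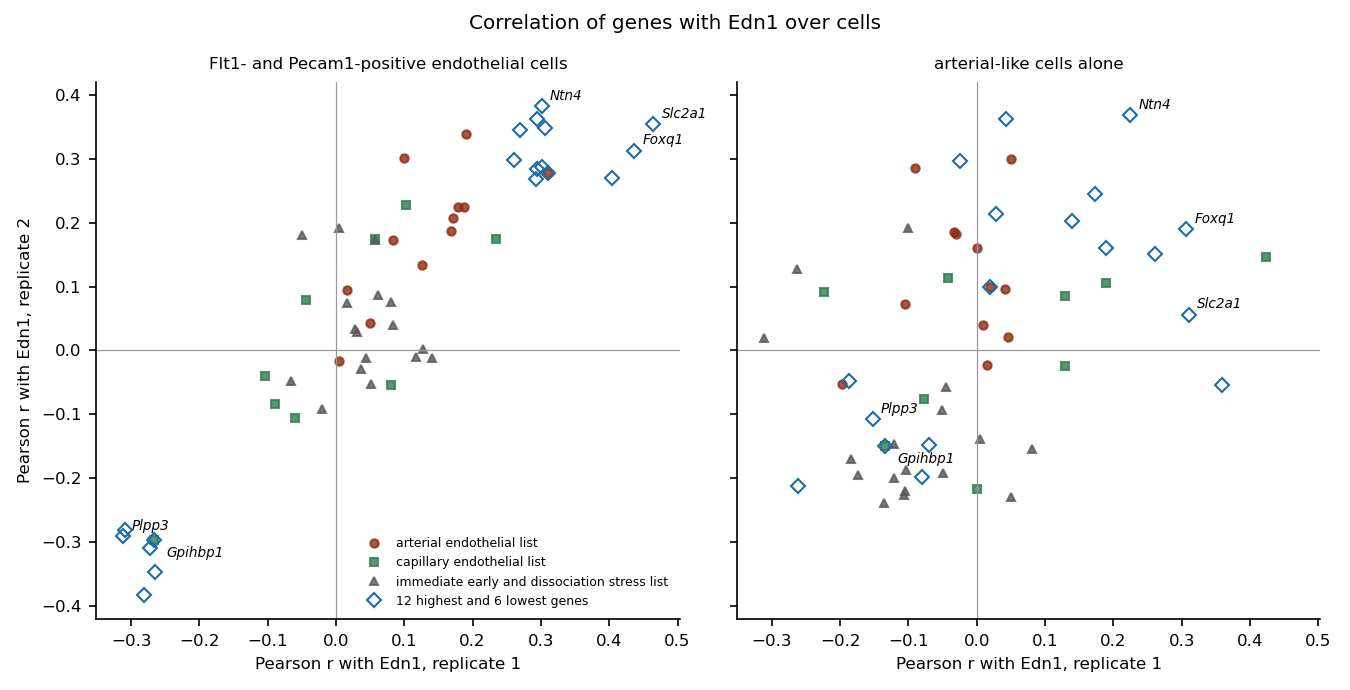
Pearson r with *Edn1* over cells in replicate 1 (x axis) and replicate 2 (y axis) for the arterial, capillary and immediate early lists and the 12 highest and 6 lowest genes. The left panel is over *Flt1*- and *Pecam1*-positive endothelial cells, where 11 of 12 arterial markers lie in the upper right, and the right panel is over arterial endothelial-like cells alone, where 11 of 17 immediate early genes lie in the lower left.

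Near the transcription start of *Edn1*, the reference holds letters of a GATA motif and of a hypoxia response motif, shown because *Gata2* and the hypoxia factors are among the regulators above. The stretch at chr13:42301484-42301501 (GRCm38, plus strand, bases 9 to 26 counted from the start) reads TTATCTctggctgCACGT, where capitals mark letters that read AGATAA and ACGTG on the reverse strand. On either strand, AGATAA occurs in 11.2% and ACGTG in 19.6% of 32851 RefSeq promoter windows of 300 bases. TGANTCA, the AP-1 motif, occurs in 7.81% of them and was not found in the windows of the 4 genes. ACGTG was also found in windows of *Ece1* and *Ece2*. A match describes letters and not a bound site.

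*Edn3* was carried by perineurial cells and fibroblasts, with 84.7% of its 535 UMIs in called cells in that class and 11.4% in mural cells. The perineurial-like subtype, cells of the sheath around nerve fascicles marked by *Itgb4*, *Itga6*, *Slc2a1* and *Cldn1*, had the highest level, 68.6 and 61.6 CPM. The epineurial fibroblast-like subtype, marked by *Pi16*, *Clec3b* and *Dpt*, followed at 48.3 and 37.0. The subtypes led by *Cemip* (24.3 and 42.7), *Arih1* (17.0 and 30.8), *Cxcl1* (18.2 and 12.5) and *Slc4a10* (11.4 and 22.8) came next, and neighbours in this order overlapped. The endoneurial fibroblast-like subtype, marked by *Abca8a*, *Abca9* and *Osr2*, was at 5.80 and 1.67 and the subtype led by *Comp* at 3.51 and 3.48. The lowest 2 subtypes rested on 1 to 3 UMIs a profile. Empty droplets held 2.16 and 1.74 CPM, which is a share of their own RNA and not a floor for cells.

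Of 28 pairs of fibroblast subtypes, 12 differed in *Edn3*, where 13.7% of all gene and pair combinations were called. The perineurial-like subtype was higher in 4 of its 7 pairs and lower in 0. It was 16.3-fold above the endoneurial fibroblast-like subtype (log2 difference 4.03, SE 0.64, adjusted p = 2.09e-05) and 16.9-fold above that led by *Comp* (4.08, SE 0.56, adjusted p = 2.27e-06). The epineurial fibroblast-like subtype was 10.7-fold above the endoneurial one (3.42, SE 0.70, adjusted p = 0.000701) and did not differ from the perineurial-like subtype past the threshold. The subtype led by *Comp* was lower in 5 pairs and the endoneurial fibroblast-like subtype in 4. With labels from summed markers per cell, the label endoneurial fibroblast-like took in 203 and 294 cells in place of 46 and 47. Perineurial-like cells then had 38.4 and 41.4 CPM against 19.8 and 31.0 (log2 difference 0.53, adjusted p = 0.403), and the difference of epineurial minus endoneurial fibroblast-like cells turned to -0.21 (adjusted p = 0.743).

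Per cell, *Edn3* was sparse. Of perineurial-like cells, 27 of 56 and 48 of 104 had a UMI, against 2 of 46 and 1 of 47 endoneurial fibroblast-like cells. Thinned to 1000 UMIs, *Edn3* was found in 5% of 160 perineurial-like cells (exact 95% interval 2.18 to 9.61) and 0 of 93 endoneurial fibroblast-like cells, which allows up to 3.23%. Thinned to 5000 UMIs, the shares were 30% of 150 perineurial-like cells (22.8 to 38.0), 15.9% of 88 epineurial fibroblast-like cells (8.98 to 25.2) and 2.20% of 91 endoneurial fibroblast-like cells (0.267 to 7.71). In the endothelial subtype led by *Pdgfc* it was 0 of 120 cells, which allows up to 2.50%. Median depths before thinning were 12090, 13590, 11993 and 14966 UMIs, thinning to 5000 left out 10, 3, 2 and 2 cells, and the unthinned shares of the first 3 were 46.9%, 28.6% and 3.23%.

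Among mural cells, *Edn3* was in the pericyte-like subtype 2 (17.7 and 40.0 CPM) and the subtype led by *Cysltr2* (24.6 and 11.1), low in the pericyte-like subtype 0 (1.10 and 5.26), and at 0 UMIs in both smooth muscle-like subtypes. It was called in 6 of 10 pairs, where 7.82% of gene and pair combinations were called. The pericyte-like subtype 2 was 9.62-fold above subtype 0 (log2 difference 3.27, SE 0.79, adjusted p = 0.0213), on 22 against 4 UMIs. Against the smooth muscle-like subtypes, with 3 counts over both replicates as the floor, it was at least 8.77-fold and at least 6.15-fold higher, and the subtype led by *Cysltr2* at least 5.24-fold and at least 3.68-fold. The 10 fibroblast markers summed to 750 and 808 CPM in the pericyte-like subtype 2, 689 and 739 in the subtype led by *Cysltr2*, 1517 and 1383 in the pericyte-like subtype 0 and between 555 and 617 in the smooth muscle-like subtypes, against 23711 and 23929 in perineurial-like cells. The part of fibroblast RNA in the mural *Edn3* levels was not tested. The call between the pericyte-like subtypes was lost when cells were called from the UMI cutoff alone (adjusted p = 0.124), with 30 principal components (0.0508), with log normalization (0.0689) and with 20 cells of each subtype and replicate (0.834).

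**Figure D4:**
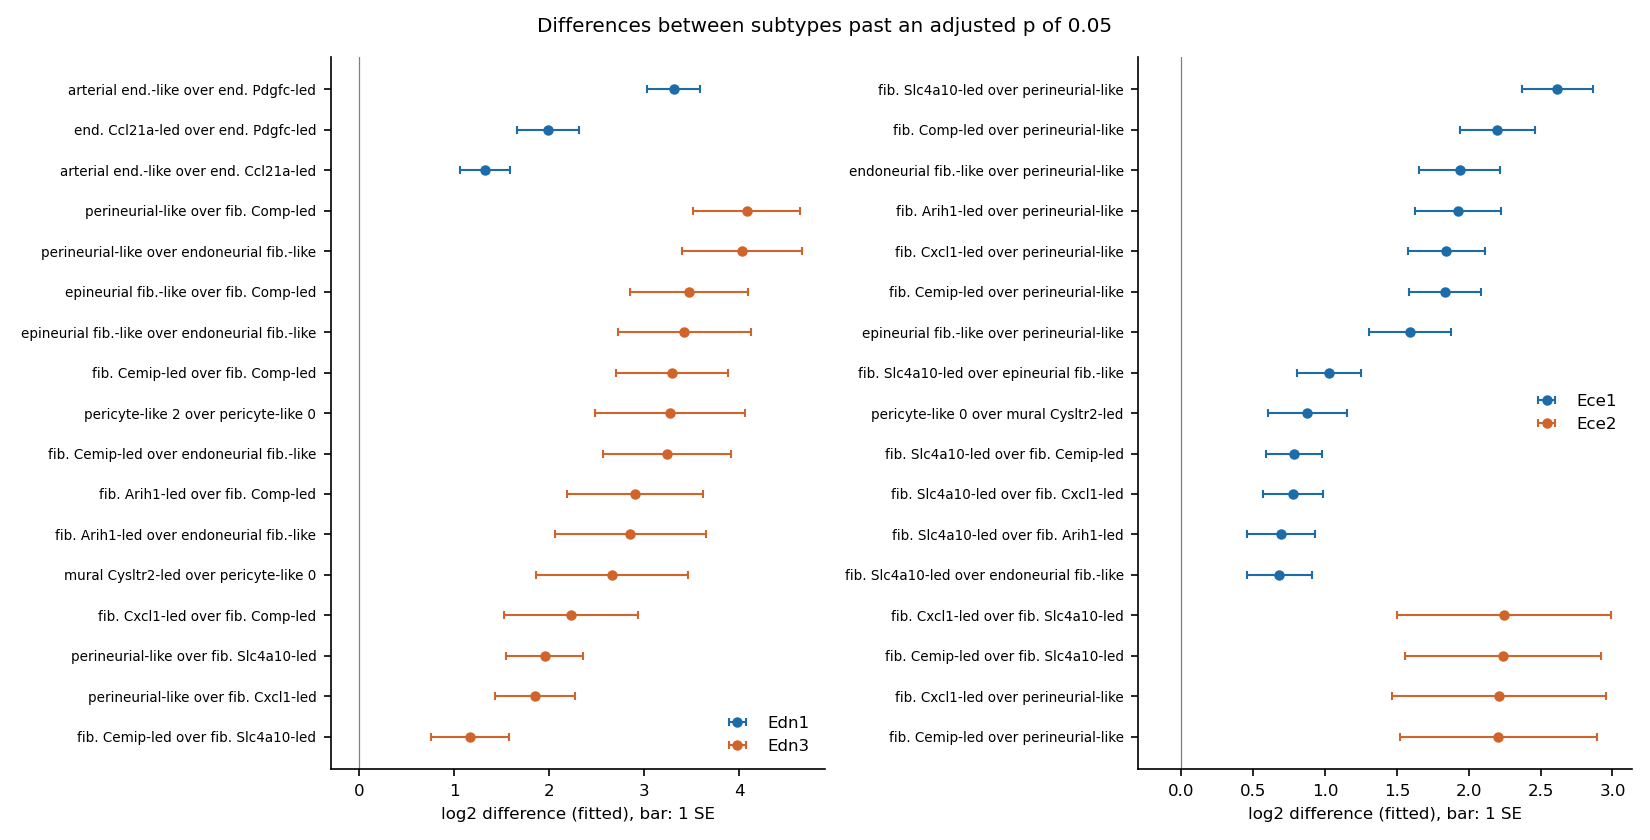
Fitted log2 differences (points) with 1 SE (bars) for the pairs of subtypes past an adjusted p of 0.05, named on the y axis as higher over lower, for *Edn1* and *Edn3* (left) and *Ece1* and *Ece2* (right). Pairs of *Edn3* against smooth muscle-like subtypes, which had 0 UMIs, are left out. The largest values are 4.08 and 4.03 for *Edn3* in perineurial-like cells, and 7 *Ece1* pairs have perineurial-like cells as the lower subtype.

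*Ece1*, the broadly expressed converting enzyme, lay between 252 and 311 CPM in the 4 endothelial subtypes kept and was lowest among fibroblasts where *Edn3* was highest. In endothelial subtypes it stood at 311 and 295 CPM in the arterial endothelial-like cells, 295 and 252 in those led by *Pdgfc*, 283 and 255 in those led by *Ccl21a* and 292 and 273 in those led by *Gm30624*. These overlapped, and 0 of 3 pairs were called by edgeR's quasi-likelihood test, 0 at an unadjusted p under 0.05 and 0 by DESeq2. For the arterial endothelial-like subtype against that led by *Pdgfc*, the log2 difference was 0.18 (SE 0.18) and those of the alternatives ran from -0.21 to 0.34.

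Among fibroblasts, the perineurial-like subtype had 17.5 and 24.1 CPM of *Ece1*, below each of the other 7 subtypes. Empty droplets held 88.9 and 77.4 CPM, and the perineurial-like subtype, the epineurial fibroblast-like subtype, that led by *Cemip* and the mural and neuronal subtypes were below this in both replicates. The subtype led by *Slc4a10* was highest at 150 and 129, followed by that led by *Comp* (111 and 77.7), and the rest lay between 55.7 and 95.2. Of 28 pairs, 12 were called, where 13.7% of all gene and pair combinations were, 7 of them with the perineurial-like subtype as the lower and 6 with the subtype led by *Slc4a10* as the higher. Between these the difference was 6.14-fold (log2 difference 2.62, SE 0.25, adjusted p = 1.18e-09). The smallest perineurial difference, against the epineurial fibroblast-like subtype, was 3.01-fold (1.59, SE 0.28, adjusted p = 8.13e-05). In mural subtypes *Ece1* lay between 24.6 and 71.9 CPM and 1 of 10 pairs was called, a share near the 7.82% of all gene and pair combinations. It was the pericyte-like subtype 0 (70.3 and 71.9) over that led by *Cysltr2* (24.6 and 47.4, log2 difference 0.88, SE 0.28, adjusted p = 0.0344). Neurons led by *Grik1* had 25.7 and 23.8 CPM. Satellite glial cells (SGCs) held 57.9% of the 21096 *Ece1* UMIs in called cells, against 9.12% in the endothelial class. The 10 SGC markers summed to 2854 and 3365 CPM in perineurial-like cells and 3012 and 3379 in the subtype led by *Slc4a10*.

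The pathway genes around *Edn3* and *Ece1* were also read in fibroblast and mural subtypes. The receptor *Ednra* was highest in the subtypes led by *Slc4a10* (98.4 and 110 CPM) and the epineurial fibroblast-like (88.5 and 113) and lay at 48.4 and 47.4 in perineurial-like cells. *Pcsk5* was highest in the subtype led by *Slc4a10* (559 and 394) and stood in perineurial-like cells at 225 and 162 against 15.5 and 28.5 in endoneurial fibroblast-like cells (log2 difference 3.00, SE 0.33, adjusted p = 2.67e-08). Between perineurial-like and endoneurial fibroblast-like cells 2 of 8 pathway genes were higher (*Ednra* and *Pcsk5*) and 0 lower. Of all 13741 genes, 1077 were called higher and 1222 lower (16.7% in either direction). A count of 2 in 8 is too small to set apart from these shares. In mural cells *Ednrb* was highest in the pericyte-like subtype 0 (130 and 149 CPM), where *Edn3* was low, and 18.2 and 13.4 in the smooth muscle-like subtype 3 (2.87, SE 0.45, adjusted p = 1.16e-05).

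*Ece2* was carried by neurons, with 66.2% of its 1005 UMIs in called cells in the 113 neurons. Its level was 56.5 and 62.1 CPM in the neurons led by *Grik1*, 64.1 and 58.6 in those led by *Dcn* and 55.1 and 52.9 in those led by *Bdnf*. The first 2 overlapped and the third lay below both, and the last 2 subtypes had too few cells for the fit, so these differences were not tested. *Dcn* is a fibroblast gene, and the 10 fibroblast markers summed to 1724 and 2433 CPM in the neurons led by it, against 133 to 225 in the others. With each neuron put in the list of sensory neuron markers it held most of, *Ece2* lay between 42.8 and 88.6 CPM in 6 lists and was found in 2 to 16 cells of each list and replicate. Peptidergic neurons, which express *Calca* and *Tac1*, had 55.7 and 54.5 CPM, and myelinated neurons, marked by neurofilaments, 88.6 and 59.8. Without the barcodes called in both replicates, neurons as a class had 61.9 and 63.2 CPM in place of 57.6 and 59.1. The 411 shallower neuron-like cells, with a median of 807 UMIs, held 15 and 2 *Ece2* UMIs.

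In endothelial subtypes *Ece2* was at 0 UMIs in both replicates, where 3 UMIs over both would be 1.49 CPM in the subtype led by *Pdgfc*. In fibroblast subtypes it lay between 0.879 and 16.1 CPM on 1 to 32 UMIs a profile. Empty droplets held 9.26 and 7.31 CPM, as a share of their own RNA. Of 28 fibroblast pairs, 4 were called, a share near the 13.7% of all gene and pair combinations, with the subtypes led by *Cemip* (10.4 and 13.9 CPM) and *Cxcl1* (16.1 and 7.27) above the perineurial-like (4.03 and 2.12) and that led by *Slc4a10* (5.18 and 0.879). For *Cemip* over perineurial-like the log2 difference was 2.21 (SE 0.69, adjusted p = 0.0267). With DESeq2 0 of the 28 pairs passed, with cells called from the UMI cutoff alone 7 of 21 did, and without barcodes shared by the replicates 2 of 28. With labels from summed markers per cell the difference of *Cemip* over perineurial-like reversed (-0.48, adjusted p = 0.691). In mural subtypes *Ece2* had 0 to 4 UMIs a profile and 0 of 10 pairs passed edgeR's test, adjusted or at an unadjusted p under 0.05.

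Ligand and enzyme were also read in the same cells, thinned to 5000 UMIs. Of endothelial cells with *Edn1*, 72 of 92 had *Ece1* (78.3%, exact 95% interval 68.4 to 86.2), against 166 of 220 without *Edn1* (75.5%, 69.2 to 81.0), which was not distinguishable at this depth. Of fibroblast and mural cells with *Edn3*, 31 of 160 had *Ece1* (19.4%, 13.6 to 26.4), against 415 of 1473 without it (28.2%, 25.9 to 30.5). Within perineurial-like cells these were 2 of 45 (4.44%, 0.543 to 15.1) and 13 of 105 (12.4%, 6.76 to 20.2), with overlapping intervals. Within the fibroblasts led by *Cemip* they were 11 of 47 (23.4%, 12.3 to 38.0) and 63 of 238 (26.5%, 21 to 32.6). The cells are not replicates, and no test was made over them.

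Over the 20 subtypes, the genes whose mean log2(CPM + 1) was most like that of each member were found among 23476 genes. For *Edn1* they were *Tbx1* (r 0.988), *Gata2* (0.979) and the receptor *Flt4* (0.976), genes with 165, 271 and 303 UMIs in these cells. For *Edn3* they were *Adamts12* (0.857), *Proca1* (0.856) and *Gbgt1* (0.849). For *Ece1* they were *H2-K1* (0.930), *Bst2* (0.921) and *Tnfsf10* (0.913), and for *Ece2* *Pebp1* (0.95), *Tro* (0.947) and *Tuba1a* (0.946). The 20 points share 2 libraries and fall into 4 classes.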

How the data were processed

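Live cells of 2 naive DRG samples were profiled by droplet single cell RNA sequencing with poly(A) capture. The authors used Cell Ranger 7.1.0 and the mm10 build, per the submitters' processing notes, and deposited matrices of UMI counts for all barcodes, with no normalization. Barcodes were called as cells from a UMI cutoff and then, from 500 UMIs, by difference from the RNA of empty droplets (false discovery rate 0.01), and cells of over 300 genes were kept (8801 and 8762, holding 90.1% and 86.5% of UMIs). Cells over 22.2% mitochondrial or 46396 total UMIs were removed, the second limit not in neurons, as were clusters of doublets. Clustering used Seurat 5.3.0 and sctransform 0.4.2 (2000 variable genes, 15 components and resolution 0.8 within classes), without the members and the 4 pathway lists. Counts were summed per subtype and replicate, with at least 20 cells in each, and tested by edgeR 4.0.16 (quasi-likelihood, TMM, 17 subtypes in 1 fit, 13741 genes with at least 10 counts in 2 profiles), with p-values adjusted by Benjamini-Hochberg over all genes of each pair at a threshold of 0.05. DESeq2 1.42.0 was an alternative, beside others of cell calling, clustering, naming, filtering and thinning. Intervals are exact binomial, and a count of 0 was given a limit of 3 counts.

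On simulated counts for the arterial endothelial-like subtype against that led by *Pdgfc*, 98.5% of 200 genes changed 4-fold were recovered, and 4.37% of calls were on unchanged genes. The counts were drawn with the fitted spreads, and the changed genes were of intermediate level. The recovery thus does not cover genes with a few UMIs a profile. The labels number the replicates 1 and 2 in all profiles. Deviations of the replicates correlated between subtypes by a median of 0.0165 over 136 pairs of subtypes (from -0.038 to 0.0994), so no pairing was used. The genes named are the members, listed genes that passed a test or had a rank, subtype markers, the 12 highest and 6 lowest correlations with *Edn1* and the 3 genes most like each member. Genes named without passing (*Gata2*) were chosen after their values were seen. Members and lists were chosen with earlier results of these data known. Gene positions and transcripts are of GENCODE on GRCm38 and promoters of RefSeq on GRCm38.p6.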

Additional observations from a re-analysis of the deposited data

Results flagged for a closer look

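Cells left out of the subtypes also carried *Edn1*. The 7 and 9 endothelial cells over the upper limit on UMIs per cell held 89 *Edn1* UMIs, at 142 and 70.5 CPM, against 104 and 151 CPM over the endothelial subtypes. The endothelial subclusters set aside as shallow or as scored doublets held 79 UMIs, at 74.7 and 56.7 CPM. Both stand out because these cells carried *Edn1* and entered no comparison. Empty droplets held 4.32 and 4.70 CPM, as a share of their own RNA.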

How the results depend on the processing

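Of 270 alternative values of 20 results, 227 were counted as the same. For a tested difference this meant the same side of the threshold, and the same direction where either value passed. For counts of pairs, correlations and thinned shares it meant a value near the main one, with no threshold. A difference from 1 replicate alone counted if nearer to the main value than the spread of the 2 replicates. A main value midway between them meets that in advance. With the subtype of each cell taken from summed markers, *Edn1* differences were 0.79 (arterial endothelial-like minus *Pdgfc*) and -0.44 (*Ccl21a* minus *Pdgfc*), those of *Edn3* 0.53 (perineurial minus endoneurial) and -0.21 (epineurial minus endoneurial) and that of *Ece2* -0.48 (*Cemip* minus perineurial), and the pairs called were 0 of 6 fibroblast and 1 of 1 mural for *Edn3*, 5 of 6 and 0 of 1 for *Ece1* and 2 of 6 fibroblast for *Ece2*. Under those labels 4 of the 332 cells led by *Cemip* kept that name, so the *Ece2* value is of other cells. With DESeq2, *Edn1* (arterial endothelial-like minus *Ccl21a*) was 1.24, *Ece2* 2.18, and 0 *Ece2* pairs passed. The *Edn3* difference of pericyte-like 2 minus 0 missed the threshold with the UMI cutoff alone (2.37), 30 principal components (3.02), log normalization (2.52) and equal numbers of cells (2.39). That of *Ece2* missed it with 30 components (1.59), equal numbers (2.90), and, chosen after seeing the data, without barcodes called in both replicates (2.17) and with the UMI limit also on neurons (2.18), where 2 and 2 pairs passed. With equal numbers of cells, 5 of 28 fibroblast and 0 of 10 mural pairs passed for *Edn3*, 5 and 0 for *Ece1* and 0 for *Ece2*, on fewer cells. At the lower resolution 6 of 15 fibroblast and 2 of 3 mural *Edn3* pairs and 0 of 3 mural *Ece1* pairs passed. With log normalization these were 3 of 6 and 0 of 6 in mural cells, and with the UMI cutoff alone 2 of 6 mural *Edn3* pairs and 7 of 21 fibroblast *Ece2* pairs passed. Apart from the settings that use fewer cells, the cause was not tested.

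The median r of the 50 genes that went with *Edn1*, read in the other replicate, was 0.113, and 0.174 with log-normalized counts, 0.151 over all endothelial-class cells, 0.0146 after thinning, and, chosen after seeing the data, -0.028 within arterial endothelial-like cells and -0.011 without subtype means. Thinning to 5000 in place of 1000 UMIs moved the shares with *Edn1* to 57.9% and 10.8% and with *Edn3* in perineurial-like cells to 30%. With a replicate block, the *Edn1* difference of arterial endothelial-like minus *Pdgfc* was 3.31 (adjusted p = 6.24e-08). Profiles with the same replicate number come from the same sample, though their deviations hardly correlated, and the main fit used no pairing. The block raised the fibroblast pairs called from 12 to 13 for *Edn3* and from 4 to 5 for *Ece2* and left the other pair counts as they were. From 1 replicate alone, with no test, this *Edn1* difference was 2.92 and 3.79. Depth limits *Edn3* and *Ece2* most, with 1 to 4 UMIs in several profiles.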
